A study of Mus musculus with 14 samples.

Results

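The untreated baseline of the series was the hippocampus of wild-type mice given vehicle alone. Its members were the 3 libraries labelled with the genotype KMT2D+/+ and vehicle treatment, out of 14 libraries in all, 1 library per sample. The mice were of strain C57BL6, were dosed by gavage with methylcellulose from 2 weeks of age for 2 weeks, and are labelled as 30 days old. The remaining 11 libraries came from wild-type mice given the LSD1 inhibitor TAK-418 and from mice heterozygous for the KMT2D bGeo allele given either the drug or vehicle, and they enter here only as a range of values beside the baseline. The labels give no sex and no dissection limits. No groups were compared and no test was made: levels are given per library, with their mean ± SD over the 3 libraries.

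The hippocampus is built around a chain of excitatory neurons, from granule cells of the dentate gyrus to pyramidal cells of fields CA3 and CA1, with CA2 between them. Local inhibitory interneurons control these cells, and the dentate gyrus keeps a pool of stem cells that produce new granule neurons after birth. At the labelled age synapses are being refined and myelin is still being laid down, so neuronal, astrocyte and oligodendrocyte transcripts are all present in the tissue. RNA from a whole hippocampus mixes all these cells.

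Each library was deposited as a set of assembled transcripts, each with an abundance per length of transcript. A gene's level is the sum over its transcripts, scaled between libraries. A gene at 0 is one to which no assembled transcript was matched, which does not show that its RNA was missing. The library total implied by the smallest step between values was 45.2 M, 49.8 M and 35.1 M for replicates 1, 2 and 3 (M reads or fragments, whichever was counted). The totals were 40.3 M to 168 M in the other 11 libraries. Replicate 3, the shallowest, held 33819 assembled transcripts, against 38550 and 39083. Most of that gap was in transcripts of a single exon, of which replicate 3 had 3862 against 7177 and 7140.

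A value was found for 16336 genes in at least 1 of the 3 libraries. Of these, 14077 (86.2%) had a value in all 3, 930 in 2 and 1329 in 1. Protein-coding genes made up 95.6% of those found in all 3 libraries but 55.6% of those found in 1. The genes found in 1 library were also weak, with a median highest level of 0.50 against 13.6 for those found in all 3. Protein-coding genes carried 98.4% to 98.6% of the abundance assigned to genes. The 570 long intergenic noncoding RNA genes carried 0.600% to 0.708% of it.

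Levels spanned several orders of magnitude. The median gene found in all 3 libraries had a mean level of 12.2, with quartiles of 4.18 and 30.6. A mean of at least 10 was reached by 7939 genes, of at least 100 by 922 and of at least 1000 by 21. The 100 most abundant genes of a library held 19.3%, 17.2% and 17.5% of its abundance (mean 18% ± 1.11, SD, n = 3). The 1000 most abundant held 52.7%, 51.4% and 50.6%. These shares include the mitochondrial gene mt-Co1, which was matched in replicate 1 alone, and Ttr, which was high in replicate 3 alone. The 10 most abundant genes held 6.03%, 4.04% and 4.62%. Without chromosome M and Ttr the 10 most abundant held 3.84%, 4.04% and 3.58%. Of the 114 genes that ranked in the first 100 in any library, 84 did so in all 3.

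**Figure D1:**
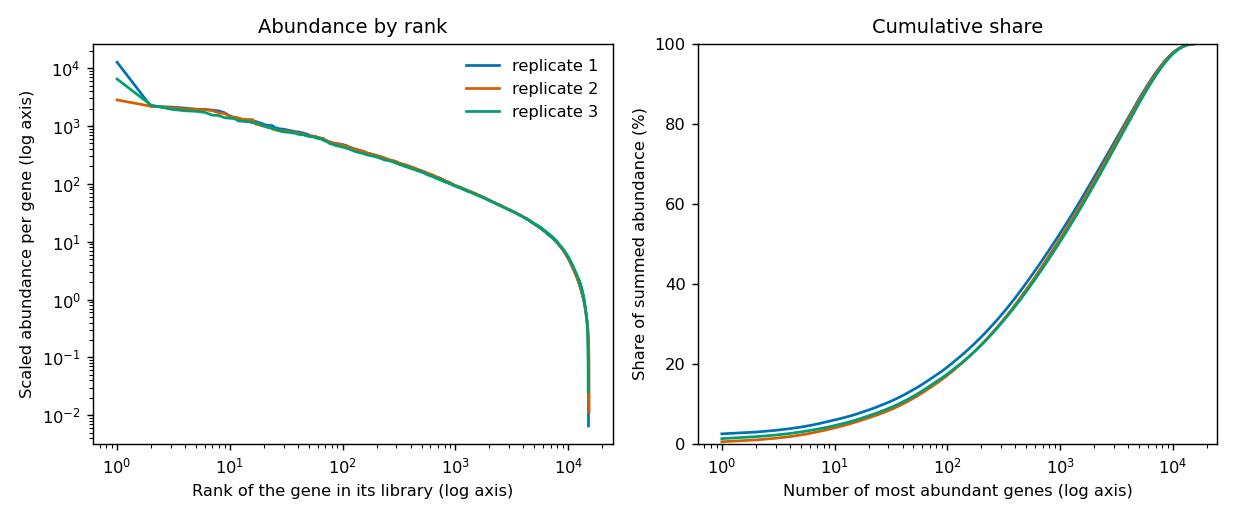
Left, scaled abundance of each gene against its rank in its library, both on log axes. Right, the cumulative share of summed abundance against the number of most abundant genes, with 1 line per wild-type vehicle library. The lines differ mainly at the first rank, which is mt-Co1 at 12701 in replicate 1, Mbp at 2825 in replicate 2 and Ttr at 6498 in replicate 3, and the first 1000 genes reach 50.6% to 52.7% of the total.

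The 20 genes of highest mean level encoded mainly myelin, metabolic, calcium-signalling and housekeeping proteins. mt-Co1, a cytochrome c oxidase subunit encoded by the mitochondrial genome, stood first with a mean of 4234, but all of it came from replicate 1 (12701), while replicates 2 and 3 listed it at 0. In replicates 2 and 3 the mitochondrial chromosome had been assembled only into long transcripts that were matched to no gene, so levels of single mitochondrial genes are not given further here. Chromosome M held 4.55%, 1.42% and 1.64% of all assembled abundance. Mbp, which encodes myelin basic protein, followed at 1825, 2825 and 2307. Ttr, the carrier of thyroid hormone and retinol made in choroid plexus, ranked 3 on its mean but stood at 36.1, 14.5 and 6498, and its ranks within the libraries were 2962, 6404 and 1.

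The other leading genes were close between the mice. Fth1, the ferritin heavy chain, was at 2128, 2198 and 1954. Cpe, carboxypeptidase E of the secretory pathway, was at 2042, 2074 and 1796. The translation elongation factor gene Eef1a1 (chr9:78478449-78489151, minus strand, mm10) stood at 1940, 1921 and 1834, a coefficient of variation of 2.98%. Calm2 and Calm3, which encode the same calmodulin protein, averaged 1875 ± 133 and 1238 ± 49.1. The actin-binding Tmsb4x averaged 1753 ± 185 and the glycolytic enzyme gene Aldoa 1434 ± 62.5, while the ubiquitin gene Ubb was at 1693, 1687 and 1517. The chaperone gene Hspa8 varied least among the 20, at 1359, 1368 and 1342, a coefficient of variation of 0.966%. The protease inhibitor gene Cst3 averaged 1312 ± 158, the lipid carrier gene Apoe 1265 ± 50.6 and the prolyl isomerase gene Ppia 1254 ± 35.2. Nrgn, a postsynaptic calmodulin-binding protein, was at 1195, 1299 and 1185, and Camk2a, the alpha subunit of calcium/calmodulin-dependent kinase II, at 1116, 1074 and 1120. Snap25, a SNARE protein of synaptic vesicle fusion, closed the 20 at 1012, 1055 and 1046.

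Gapdh, the glycolytic enzyme often used as a reference gene, was among the 20 and varied most of them after mt-Co1 and Ttr. Its level was 906, 1963 and 877, so replicate 2 was high and replicates 1 and 3 lay close together. The many processed copies of Gapdh in the mouse genome make its value uncertain, since how reads shared between copies were divided is not given in the sources used here.

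Genes of the ribosome and of oxidative phosphorylation were high as groups. Of 82 cytoplasmic ribosomal protein genes 79 had a value in all 3 libraries, with a median level of 283, 277 and 245. Rplp1 led them at 722 ± 63.3, followed by Rpl41 at 513 ± 54.1. Rpl10l and Rpl39l, retrogene-like paralogs of ribosomal protein genes, were at 0 throughout. Of 93 nuclear genes of oxidative phosphorylation 90 had a value in all 3, with a median of 124, 131 and 115. Atp5b, the catalytic beta subunit of ATP synthase, led at 780 ± 20.3. Both lists were lowest in replicate 3, at a summed level of 20534 against 23428 and 23482 for the ribosomal genes and of 13118 against 14979 and 15481 for the nuclear mitochondrial genes.

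Marker genes were read as 28 lists of 7 to 14 genes, each for a cell class, a brain region or, as a control, other organs. In bulk tissue fewer cells of a type and less RNA per cell cannot be told apart. The median member level was at least 10 in 12 of the 28 lists, where the median over all genes with a value was 9.36. All 12 genes of the neuron list had a value in every library, with a median of 344, 340 and 328. Behind Snap25 came Syp, a membrane protein of synaptic vesicles, at 1151, 786 and 705, Uchl1 at 482 ± 44.4 and the calcium sensor of release Syt1 at 444 ± 5.47. Rbfox3, which encodes the nuclear marker NeuN, was at 102, 94.5 and 105.

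**Figure D2:**
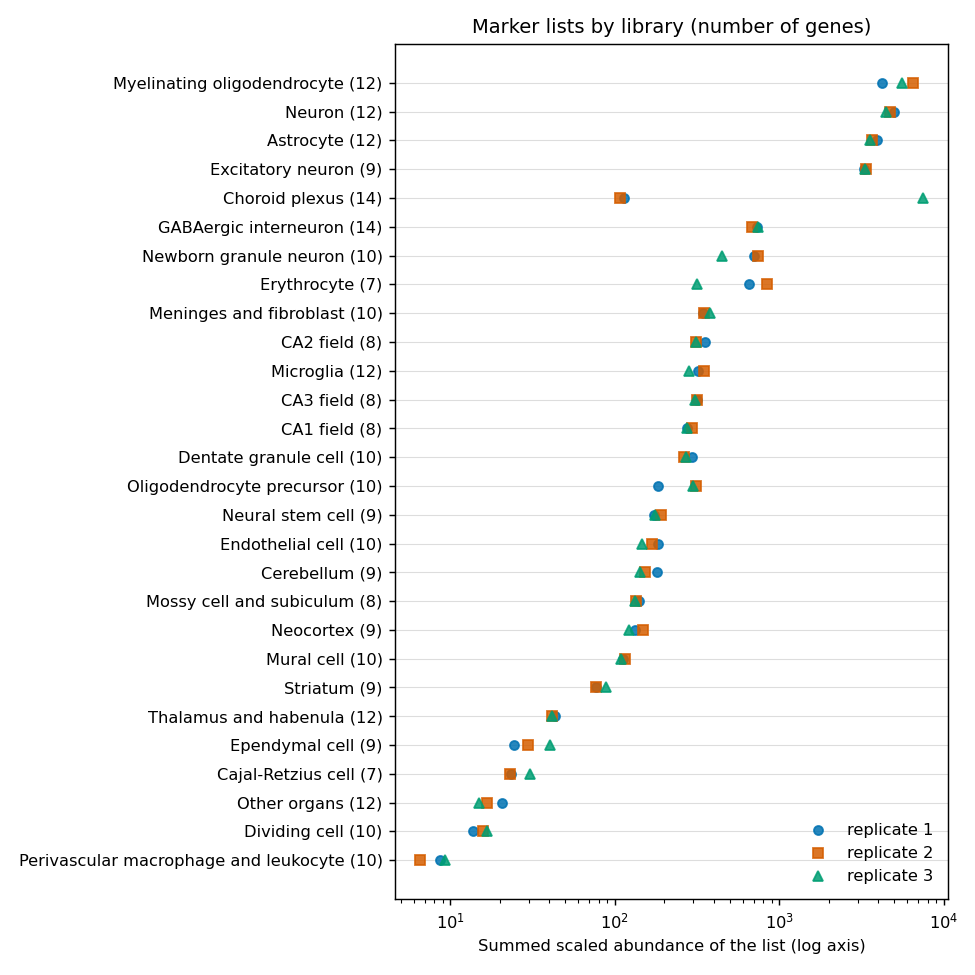
Summed scaled abundance of each of 28 marker lists (log axis), with the number of genes in brackets and 1 symbol per wild-type vehicle library. The neuron and astrocyte lists are among the highest and nearly equal between libraries, whereas the choroid plexus list is at 113, 107 and 7432 and the blood list is lowest in replicate 3.

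Excitatory markers were those of forebrain pyramidal and granule cells. Slc17a7, the vesicular glutamate transporter VGLUT1, was at 610, 639 and 663, whereas Slc17a6, the transporter VGLUT2 of thalamic and brainstem neurons, was at 2.73, 4.18 and 2.75. The transcription factor genes Neurod6 and Neurod2 were at 184 ± 11.7 and 75.3 ± 5.25. Tbr1, a factor of deep cortical layers and glutamatergic lineages, was at 15.3 ± 0.405. Of the 7 members found in every library with a mean of at least 5, 0 had a highest level at least 2 times the lowest, a ratio reached by 429 of 10060 such genes (4.26%).

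Markers of each hippocampal field had values, but at unequal levels within a list. The dentate granule cell list had a median of 17.3, 16.5 and 18.8, and all 10 of its genes had a value in every library. Prox1, the transcription factor that keeps granule cell identity, was at 30.8, 31.3 and 30.7. C1ql3 and C1ql2, secreted C1q-like synaptic proteins, were the highest granule markers at 85.3 ± 16.1 and 53.1 ± 2.54, followed by Stxbp6 at 37.5 ± 1.62. The CA1 list had a median of 32.0, 31.3 and 29.3, led by Mpped1 at 73.2 ± 7.80, Wfs1 at 55.8 ± 5.73 and Fibcd1 at 51.5 ± 3.86. Its lowest member was Pou3f1 at 1.69 ± 0.347, which the authors' deposited table gave as 15.1. Wfs1 encodes wolframin, an endoplasmic reticulum protein that marks CA1 pyramidal cells.

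CA3 markers had a median of 20.2, 20.2 and 18.6. Dkk3, a secreted protein of the dickkopf family, led at 144, 148 and 142, and Bok and Cpne4 followed at 63.9 ± 3.08 and 54.1 ± 1.87. The kainate receptor subunit gene Grik4, enriched in CA3, was at 27.2, 27 and 24.4. The CA2 list had a median of 17.2, 16.0 and 26.9, and its leading genes were Pcp4 at 203, 185 and 169 and Rgs14, a regulator of G protein signalling, at 76.5, 51.7 and 46.4. Other CA2 markers were low: Amigo2 was at 3.26 ± 0.220 (12.8 in the authors' deposited table), Cacng5 at 4.23 ± 0.399 and Map3k15 at 4.24 ± 1.90. Replicate 3 had the highest CA2 median, and 1 of the list's members, Sostdc1, is also on the choroid plexus list and stood at 2.81, 2.05 and 24.7. Summed over each list, CA3 ranged from 308 to 316, CA1 from 276 to 294 and dentate from 263 to 296 between the mice. Mossy cell and subiculum markers had a median of 3.36, 5.15 and 2.85, led by Ociad2 at 78.9 ± 3.34 and by Calb2, which encodes calretinin, at 34.6 ± 5.19. Drd2 and Csf2rb2 of the same list were at 1.96 ± 0.672 and 2.28 ± 0.684.

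Markers of inhibitory interneurons had a median of 23.7, 12 and 24.1. The peptide gene Sst led them at 299, 290 and 294. Gad1 and Gad2, which make GABA, were at 128 ± 4.21 and 42.2 ± 0.803, and the vesicular transporter gene Slc32a1 was at 30.8 ± 3.95. Npy was at 68.1 ± 12, Pvalb, which encodes parvalbumin, at 52.6 ± 6.85 and Vip at 12.5 ± 2.52. The low median of replicate 2 went with a low Cnr1, the gene of cannabinoid receptor CB1, at 50.2, 7.37 and 65.9, while the list's summed level was 732, 684 and 743. Of the Cajal-Retzius markers Reln was at 10.2 ± 3.09, Trp73 at 1.64 ± 0.363, and the defining factor genes Lhx1 and Lhx5 were at 0 in all 3 libraries (0.201 and 0.0791 in the authors' deposited table).

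Markers of neurogenesis were present at low levels. Dcx, a microtubule protein of migrating neurons, was at 4.91, 4.98 and 6.51. Neurod1, a factor of granule cell differentiation, was at 22.8, 20.9 and 23.0, and Eomes, which marks intermediate progenitors, at 1.07 ± 0.225. Tubb2b and Stmn1 were far higher at 293 ± 145 and 265 ± 21.7, and Tubb2b was low in replicate 3 (367, 385 and 126). Among stem cell markers Hopx was at 78.3 ± 8.39, Thrsp at 39.0 ± 2.60, Hes5 at 6.38 ± 0.316 and Nes, which encodes nestin, at 2.72 ± 0.275. Sox2, a single-exon gene, was at 1.04, 0 and 0. Hopx and several other members of this list are also expressed in astrocytes. The 10 genes of dividing cells had a median of 1.14, 1.41 and 1.31, led by Top2a at 3.33 ± 0.891 and Mki67 at 1.94 ± 0.281.

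Astrocyte markers had a median of 192, 203 and 188. After Apoe, the glutamine synthetase gene Glul was at 722, 453 and 600, Aldoc at 495 ± 55 and Ndrg2 at 391 ± 26.5. The glutamate transporter genes Slc1a2 and Slc1a3 were at 330 ± 20.8 and 213 ± 8.61, and Gfap was at 170, 185 and 171. The microglia list had a median of 22.1, 28.7 and 22.4, with Ctss at 43.8 ± 5.28 and C1qa at 38.3 ± 3.11, and the homeostatic markers P2ry12 and Tmem119 were at 21.9 ± 1.47 and 10.2 ± 2.31. All 12 genes of both lists had a value in every library.

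Myelin genes were lower in replicate 1 than in the other mice. Summed over the 12 markers of myelinating oligodendrocytes, the level was 4180, 6441 and 5536, and over the 11 libraries of the other groups it ranged from 3989 to 5279, so replicates 2 and 3 lay above that range. Mobp, a myelin-associated basic protein, was at 433, 606 and 561, Mal at 223, 333 and 274, and Cnp at 127, 211 and 285. Ugt8a, which makes the myelin lipid galactosylceramide, went the other way at 35.7, 29.9 and 25.4. Of the precursor markers Pdgfra was level at 14.6, 14.5 and 15.3, Bcas1 was at 93.5 ± 13.9 and Gpr17, which marks committed precursors, at 28.2 ± 2.87. Enpp6, a marker of newly forming oligodendrocytes, was at 4.14, 8.92 and 6.58. Olig1 was at 2.19, 84.5 and 87.8, but it is a single-exon gene in all 3 libraries and is taken up with such genes further on.

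Slc2a1, the glucose transporter of the blood-brain barrier, led the endothelial list at 54.3, 44.8 and 36.5, and Itm2a and Ly6c1 followed at 35.8 ± 2.19 and 34.9 ± 6.23. Endothelial markers had a median of 8.52, 7.78 and 7.20, and mural markers one of 3.42, 2.87 and 4.37, led by Vtn at 46.2 ± 3.24 and the pericyte gene Rgs5 at 36.4 ± 1.74. Among meningeal markers Ptgds, a prostaglandin D synthase also made by oligodendrocytes, was at 269 ± 8.75, with Dcn at 33.6 ± 4.14 and Igf2 at 12.6, 14.7 and 50.7, highest in replicate 3. Of the macrophage and leukocyte markers Mrc1 was at 3.33 ± 1.34 and Ptprc at 2.24 ± 0.809, and Lyve1, a defining marker, was at 0 in all 3 libraries, as were Cd3e, Ms4a1 and S100a8.

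Haemoglobin transcripts differed between the mice. Hba-a1 was at 173, 246 and 105, Hba-a2 at 165, 233 and 100, Hbb-bt at 142, 189 and 61.6, and Hbb-bs at 170, 169 and 46.3. Replicate 3 was lowest for all 4 globin genes, which have near-identical copies. The red cell membrane gene Slc4a1 was at 0 throughout, and the heme enzyme gene Alas2 was at 1.85 ± 0.340. The list's summed level was 652, 838 and 315, against 433 to 1015 in the other 11 libraries.

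Choroid plexus transcripts were high in replicate 3 alone. Of the 14 markers 6 had a value in all 3 libraries, and all 14 had one in replicate 3, where the median was 17.4 against 0.590 and 0.220. Enpp2, which makes lysophosphatidic acid and is also expressed by oligodendrocytes, was at 63.6, 83.9 and 754, and Kl, which encodes klotho, at 6.69, 5.55 and 39.7. Folr1, a folate receptor, was at 0.877, 0.595 and 17.1. The potassium channel subunit gene Kcne2 was at 0, 0 and 17.7, and Otx2, a homeobox factor of choroid plexus, at 0, 0 and 7.68. Without replicate 3 the list's median mean level was 0.398, against 6.04 with it. The summed level of 7432 in replicate 3 exceeded the highest of the other 11 libraries, 5979, whose median was 117, while 113 and 107 in replicates 1 and 2 lay near that median. Most of that sum was Ttr, at 6498 against a highest of 4980 in the other 11 libraries. Prlr was also above their highest, at 8.85 against 8.30. Most other markers were below it in replicate 3, such as Enpp2 (754 against 785), Kl (39.7 against 42.2), Folr1 (17.1 against 28.9), Kcne2 (17.7 against 19.4) and Otx2 (7.68 against 9.96). The summed level of ependymal markers, whose cells line the ventricle beside the plexus, was also highest in replicate 3, at 24.5, 29.5 and 40.5. The list was led by the ciliary factor gene Foxj1 at 4.01, 4.83 and 7.33. Mia at 2.81, 2.89 and 7.37 and Rsph1 at 3.41, 3.48 and 7.24 were also highest in replicate 3, as were Dynlrb2 and Ak7. Ccdc153 (4.25, 5.50 and 5.26), Tmem212, Rarres2 and Spag17 were instead highest in replicate 2.

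Markers of neighbouring brain regions and of other organs ranged widely. The 3 defining cerebellar genes Gabra6, Pcp2 and Barhl1 were at 0 in all 3 libraries, and the list's summed level of 179, 152 and 142 came almost wholly from Calb1 at 100 ± 17.2 and from Pvalb, both of which hippocampal neurons also express. The habenular receptor gene Gpr151 and the thalamic factor gene Gbx2 were at 0, while Prkcd was at 14.2 ± 0.199 and Lhx9 at 7.14 ± 0.580. In the striatal list Gpr6 was at 0, Adora2a was at 0.933 ± 0.205, and Ppp1r1b, which encodes DARPP-32, led at 23.5, 24.6 and 42.1, ahead of Penk at 17.9 ± 0.377. In the neocortical list Hs3st4 led at 52.9 ± 0.383, Fezf2 was at 20.2, 43.5 and 21.3, and the layer 4 factor gene Rorb was at 1.61 ± 0.296. Of the 12 genes of other organs 5 were at 0 throughout, Apoa1, Ckm, Umod, Lipf and Gcg. Alb, the liver's main secreted protein, was at 0.126, 0 and 0, and Cyp2e1 was the highest at 11.7 ± 2.33 and Myh6 next at 1.66 ± 0.923. The authors' deposited table gave Cyp2e1 only 0.147, so its level here is uncertain.

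All 20 genes of synaptic vesicle release had a value in every library, with a median of 218, 221 and 233. Vamp2, the vesicle SNARE, was at 503, 520 and 538, the ATPase gene Nsf that takes SNARE complexes apart at 490, 478 and 482, and the vesicle glycoprotein gene Sv2a at 137, 137 and 137. The widest apart were Syp, given above, the active zone scaffold gene Bsn at 43.8, 42.7 and 68.5 and its relative Pclo at 40.8, 27.2 and 40.2. The calmodulin and CaM kinase list had a median of 841, 830 and 719. Its widest spread was in Camk2b, the beta subunit, at 226, 524 and 429.

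Ionotropic glutamate receptors were led by the AMPA subunits Gria1 at 218, 289 and 264 and Gria2 at 257, 151 and 255, the subunit that makes the channel impermeable to calcium. Gria3 was at 72.2 ± 0.358 and Gria4 at 21.6 ± 0.801. Grin1, the obligatory NMDA receptor subunit, was at 187, 194 and 208. Its partners were unequal between the libraries: Grin2a was at 17.8, 17.1 and 42.0, and Grin2b at 33.0, 31.0 and 4.05. Replicate 3 was therefore high in the one and low in the other. The authors' deposited table, which pools the mice, gave 40.5 for Grin2a in its own locus and 24.6 for Grin2b. How far this spread comes from the assembly of each library was not tested. The summed level of the 7 NMDA receptor genes was 268, 278 and 282. The kainate subunit Grik5 was at 86.1 ± 1.4 and the metabotropic receptor Grm5 at 58.2 ± 2.22, while Grm6, a receptor of retinal bipolar cells, was at 0.

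Of 13 GABA-A receptor subunit genes 12 had a value in all 3 libraries, and the cerebellar Gabra6 was at 0. Gabra5, the subunit of extrasynaptic receptors in pyramidal cells, was the highest at 129, 141 and 128. Gabrd, found in dentate granule cells, was at 12.9 ± 0.893.

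Of 15 activity-regulated genes 12 had a value in every library. Egr1 was at 43.7, 64.8 and 65.2, Arc at 37.2, 54.1 and 53.1, and Nr4a1 at 25.5, 32.9 and 34.1, each lowest in replicate 1. Fos was at 5.33, 11.7 and 9.41. Npas4, which is induced by neuronal depolarization, was level at 4.77, 4.76 and 5.33, and Bdnf at 35.4, 32.8 and 36.5. Summed over the list, the level was 239, 339 and 316, and 197 to 254 in the other 11 libraries, so replicates 2 and 3 lay above that range. Junb, at 0, 35.0 and 27.8, and Ier2, at 0 in all 3 libraries but at 3.23 in the authors' deposited table, are short genes of few exons.

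Among long noncoding RNAs the imprinted Meg3 led at 573, 766 and 788, ahead of the neuronal Snhg11 at 687, 675 and 485 and of the nuclear Malat1 at 331, 372 and 316. Kcnq1ot1, an unspliced imprinted transcript, was listed at 0 in each library, whereas the authors' deposited table gave 2.12. Of the 23 genes that write, erase or organize methylation of histone H3 lysine 4, 21 had a value in every library. Kmt2d, the methyltransferase gene altered in the mutants of the series, was at 14.3, 14.5 and 14, rank 6466. The authors' deposited table gives Kmt2d a locus of its own at 2.54 and a second at 42.0 that it shares with a neighbouring gene, so its pooled value cannot be read there. Its paralog Kmt2c was at 17.4 ± 1.4. Kdm1a, which encodes the drug's target LSD1, was at 34.4, 35.2 and 32.9, rank 3143. Pagr1a and Men1, also among the 23 genes, were found in 1 library each, at 35.9 and 26.7.

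Sex-linked genes separated the mice. Xist, the RNA that silences an X chromosome in females, was at 60.2, 0 and 85.1. In the authors' deposited table, which pools the mice, Xist has a locus of its own listed at 0 and a locus shared with other gene names at 39.9. Genes of the Y chromosome were found in replicate 2 alone: Eif2s3y at 37.5, Ddx3y at 25.3, Kdm5d at 7.11 and Uty at 5.84. The group therefore holds 1 library with Y-linked transcripts and 2 with Xist.

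Agreement between the libraries was computed over all 16336 genes on log2(level + 1.07), a pseudocount below which the lowest 10% of the values above 0 lie. Pearson's r was 0.962 for replicates 1 and 2, 0.958 for 1 and 3 and 0.958 for 2 and 3, and Spearman's rho 0.962, 0.959 and 0.959. These are correlations across genes, which are not independent replicates. Among genes with a value in both libraries, the median absolute difference on the log2 scale of scaled levels was 0.112, 0.134 and 0.126, and 2.28% to 2.69% differed by more than a factor of 2. The median coefficient of variation was 13.9% for genes with a mean of 1 to 10, 6.11% from 10 to 100, 5.42% from 100 to 1000 and 5.57% for the 20 genes at 1000 or more.

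**Figure D3:**
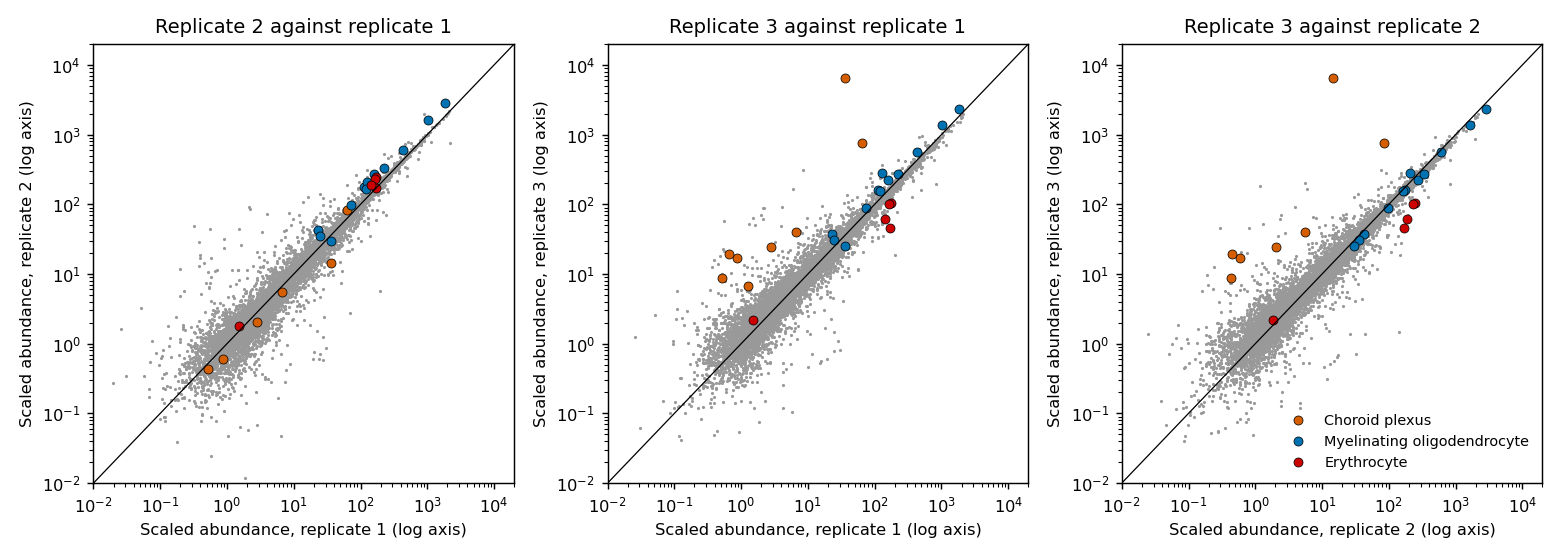
Scaled abundance of each gene in 1 library against another (log axes, grey points, genes with a value in both), with 3 marker lists in colour and the line of equality. Choroid plexus genes stand above the line wherever replicate 3 is plotted, with Ttr at 36.1, 14.5 and 6498. Myelin genes other than Ugt8a lie above it in replicate 2 against replicate 1.

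The 429 of 10060 genes (4.26%) with a ratio of at least 2 between the highest and the lowest library were highest in replicate 3 in 183 cases, in replicate 2 in 141 and in replicate 1 in 105. Over the remaining pair of libraries the count was 278 without replicate 1, 291 without replicate 2 and 239 without replicate 3. Such ratios were more frequent for genes that lacked a spliced transcript in at least 1 library. Of 87 such genes 33 (37.9%) reached that ratio, against 396 of 9973 genes (3.97%) with a multi-exon transcript in every library. Some of the 87, such as Klhl41, did have a spliced transcript in another library. With a mean of 10 to 100, 20 of 52 genes that were single-exon in all 3 libraries reached it, against 235 of 6897 multi-exon genes. From 100 to 1000 the counts were 0 of 6 and 32 of 887. Members of the lists that reached it included the 4 globin genes, lowest in replicate 3, and the choroid plexus genes Ttr, Enpp2, Kl, Folr1 and Sostdc1. Of these, Folr1 and Sostdc1 reached the mean of 5 only through replicate 3. Of the neuron, astrocyte and microglia lists, with 12 genes each, and of the 20 vesicle release genes, 0 reached the ratio. Against a share of 4.26% over all genes, lists of this size are too short to show a difference.

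The 15 genes with the largest ratio were led by Ttr, whose highest level was 449 times its lowest. The next 14 were Klhl41 at 0.550, 45.0 and 57.3, Purb at 25, 141 and 1.47, Fjx1, Nkx2-1, Spc24, Nkain3, Rnf26, Olig1, Lyl1, Tram1l1, Kcnf1, Nap1l3, Ctxn1 and Lars2, with ratios from 35.8 to 104. Of these 15, Fjx1, Purb, Rnf26, Olig1, Tram1l1, Kcnf1 and Nap1l3 were single-exon transcripts in all 3 libraries. Purb encodes a single-stranded DNA-binding protein and Olig1 an oligodendrocyte transcription factor. Spc24, a kinetochore gene, stood at 1.49, 8.13 and 63.9, and Nkain3, whose product interacts with a sodium pump subunit, at 2.13, 90.7 and 87.3. In the authors' deposited table, which pools the mice, Spc24 was at 1.26, Nkain3 at 3.53, Lyl1 at 1.00 and Klhl41 at 0.245, each far below the high libraries, while Olig1 was at 69.7, Purb at 82.8 and Nap1l3 at 20.4. How far these ratios come from the assembly of each library was not tested.

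A further 24 genes stood at 0 in 1 library and at 20 or more in both others. They included Xist, Eif4a1 at 209, 215 and 0, Tuba1c at 538, 0 and 503, Eid1 at 0, 153 and 27.6, Hapln4 at 36.0, 32.7 and 0, and Slitrk1 at 0, 25.9 and 26.1. Matching by exon overlap as well gave 3 of the 24 a value in every library. Cnih2, an auxiliary AMPA receptor subunit, stood at 12, 0 and 0 in the assemblies, whereas the authors' deposited table gave it 325 in its only locus.

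The authors' deposited table of wild-type against mutant vehicle mice gives 1 pooled FPKM value per locus for the wild-type vehicle group. For 10913 genes with a locus of their own and a level here, Spearman's rho across genes with the mean of the 3 libraries was 0.945, and Pearson's r on the log2 scale was 0.946. The pooled value was a median of 0.757 times the mean level. Of 5751 such genes with a mean level of at least 10, 125 had a pooled value under 0.25 times it, and of 5145 with a pooled value of at least 10, 34 had one over 4 times the mean level. Of those 125 genes 71 were also named in another locus of the table, as Tubb2b was, at 0.296 in its own locus and at 409 in one that also names Tubb2a, against a mean level of 293 here. Over the 10703 genes that the table names in 1 locus only, rho was 0.962 and the counts were 54 of 5627 and 33 of 5097. Of 12739 genes with a locus of their own and no transcript here, 240 had a pooled value of at least 1 and 71 of at least 10. For most of the marker genes at 0 above, the table gave values under 1: Pcp2 0.425, Gpr151 0.441 and Lyve1 0.266.

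About 1 gene in 2 was assembled as a single transcript. The mean number of transcripts per gene was 2.02, 2.03 and 1.97 and the median 1.00 in each library. Genes with 1 transcript made up 51.0%, 50.8% and 52.0%, and genes with at least 5 made up 6.62%, 6.72% and 5.85%. The number was the same in all 3 libraries for 44.2% of the genes found in all of them and within 1 for 79.3%. By level, the mean was 1.31 for genes with a mean level under 1, 2.02 from 1 to 10, 2.19 from 10 to 100 and 1.87 at 100 or more.

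The 10 genes with the most transcripts encode large scaffold, cytoskeletal or regulatory proteins, apart from 1 noncoding gene. Sorbs2, an adaptor that links the cytoskeleton to adhesion sites, had 21, 28 and 14 transcripts at a mean level of 33.2, and its most abundant transcript held 28.2%, 19.7% and 31.9% of its abundance. The transcription factor gene Zbtb20, needed for CA1 identity, had 19, 25 and 17, and Syne1, a giant protein of the nuclear envelope, 23, 17 and 18. Ncor1, C2cd5, Arpp21 and Anks1b averaged 16.0 to 16.7. Snhg14, the long host transcript of small nucleolar RNAs in the imprinted Prader-Willi region, had 11, 21 and 18.

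Across 5095 genes with at least 2 transcripts in every library, the leading transcript held a median of 66.4%, 67.2% and 68.0% of the gene's abundance. It had the same chain of introns in all 3 mice for 2644 of them (51.9%), and for 70.6% of the 272 with a mean level of at least 100. Multi-exon transcripts were therefore compared by their whole chain of introns. The libraries held 31372, 31943 and 29957 chains, of which 14435 were found in all 3, that is 46.0%, 45.2% and 48.2%. These shared chains carried 86.4%, 86.4% and 86.7% of the abundance of multi-exon transcripts. Their median abundance was 9.33, 9.79 and 10.4, against 0.883, 0.884 and 1.06 for the rest. Of the shared chains 78.8% matched an annotated transcript exactly, against 14.1% of the others. Single introns were far more stable: 140746 of 176233 were found in all 3 libraries, and 98.6% of those were annotated, against 53.3% of the 22787 found in 1 library.

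**Figure D4:**
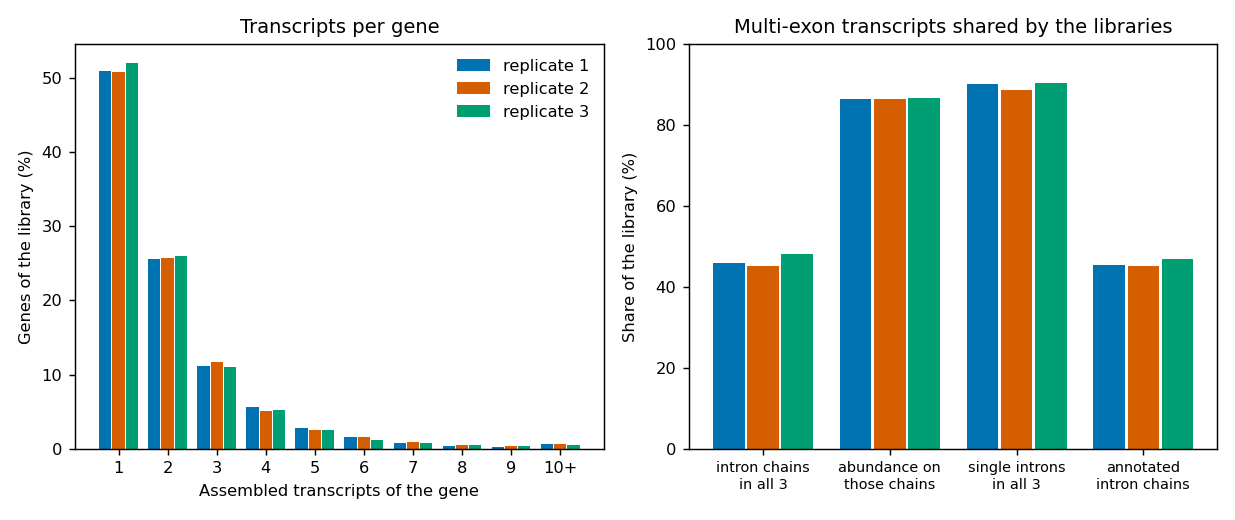
Left, share of the genes of each library by number of assembled transcripts. Right, share of a library's intron chains found in all 3 libraries, share of multi-exon abundance on those chains, share of single introns found in all 3, and share of chains that match the annotation, with 1 bar per wild-type vehicle library. Chains in common are 45.2% to 48.2% by number and 86.4% to 86.7% by abundance.

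Alternative exons were read from the same assemblies. A cassette exon is one that is either included between a given donor and acceptor or skipped, and its inclusion is the share of the abundance of both forms that holds the exon. With at least 5 units of abundance over both forms in each library, 3759 cassette events in 2467 genes were found, of which 1639 showed both forms in every library. An event is an exon with a given donor and acceptor, so an exon with several of these was counted more than once. Median inclusion was 70.0%, 69.9% and 71.3%. Inclusion differed by a median of 10.2 percentage points between the highest and the lowest library, and by more than 50 points for 159 events (4.23%). Pearson's r between libraries, across events, was 0.904 to 0.906.

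Microexons, here cassette exons of at most 27 bases, numbered 225 in 195 genes, counted as events in the same way. Such exons are a hallmark of neuronal splicing, and most insert a few amino acids at a protein surface. Their median inclusion was 76.5%, 78.6% and 75.9%, against 69.4%, 69.5% and 70.7% for the 3534 longer cassettes. A length that is a multiple of 3, which keeps the reading frame, was found in 203 of the 225 (90.2%) and in 1908 of the 3534 (54%). The most frequent lengths were 27 bases (43 events), 24 bases (39) and 21 bases (33), and the shortest were 4 events of 3 bases.

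Of the 57 genes chosen for known alternative exons, 45 had at least 1 such event, 98 cassette exons and 19 pairs in all, here each counted once. The following sequences (GENCODE M21 transcripts, mm10, 5′ to 3′) show 5 microexons in capitals between 20 bases of the exon before and 20 of the exon after, since these exons set how included and skipped forms differ.
Src: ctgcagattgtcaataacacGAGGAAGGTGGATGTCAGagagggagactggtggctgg
Mef2d: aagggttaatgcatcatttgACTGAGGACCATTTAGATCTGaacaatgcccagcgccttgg
Mef2c: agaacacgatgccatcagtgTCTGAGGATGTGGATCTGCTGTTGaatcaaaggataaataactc
Dnm2: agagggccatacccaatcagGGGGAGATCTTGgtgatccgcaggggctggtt
Rps24: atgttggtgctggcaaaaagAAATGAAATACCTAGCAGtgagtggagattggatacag

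The microexon of Src (chr2:157458843-157458860, plus strand) is the neuronal N1 exon, which adds 18 coding bases in the SH3 domain. It was included in 100%, 85.1% and 100% of abundance, and in 82.2% to 93.5% in the other 11 libraries. The 21 coding bases of Mef2d (chr3:88161781-88161801, plus strand), in a neuronal and muscle transcription factor, were included at 89.4%, 94.4% and 85.7%. The exon of its paralog Mef2c (chr13:83654598-83654621, plus strand), 24 bases, stood at 78.3%, 92.0% and 91.1%. All 3 exons were thus in most of the abundance in every mouse.

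The 12-base exon of dynamin 2 (Dnm2, chr9:21490658-21490669, plus strand) was at 44.1%, 53.0% and 54.9%. It ranged from 0% to 92.2% over the 10 other libraries that reached the minimum abundance, with a median of 54.6%. The exon of the ribosomal protein gene Rps24 (chr14:24494052-24494069, plus strand), 18 bases at the end of the coding region, was mostly skipped, with inclusion of 18%, 12.6% and 11.4% at levels of 423 to 463. Its range in the other 11 libraries was 9.32% to 17.6%.

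In 115 pairs of exons, in 102 genes, transcripts held either the first or the second exon between the same donor and acceptor. Of these pairs, again counted for each donor and acceptor, 29 were of equal length. The 3 pairs below are shown because each makes a choice between near-duplicate stretches of protein; capitals mark the positions at which the first exon and the second differ.
Pkm first: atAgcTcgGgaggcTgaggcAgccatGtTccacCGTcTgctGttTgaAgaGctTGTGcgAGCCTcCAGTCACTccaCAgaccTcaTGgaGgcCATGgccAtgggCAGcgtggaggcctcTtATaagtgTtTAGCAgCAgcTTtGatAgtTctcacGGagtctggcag
Pkm second: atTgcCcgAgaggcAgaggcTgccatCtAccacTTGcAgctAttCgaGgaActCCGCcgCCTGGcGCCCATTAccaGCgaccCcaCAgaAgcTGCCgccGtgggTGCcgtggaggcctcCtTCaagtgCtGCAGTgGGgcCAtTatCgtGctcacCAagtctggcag
Gria1 first: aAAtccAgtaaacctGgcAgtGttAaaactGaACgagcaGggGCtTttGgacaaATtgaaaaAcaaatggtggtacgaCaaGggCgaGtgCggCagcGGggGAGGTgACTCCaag
Gria1 second: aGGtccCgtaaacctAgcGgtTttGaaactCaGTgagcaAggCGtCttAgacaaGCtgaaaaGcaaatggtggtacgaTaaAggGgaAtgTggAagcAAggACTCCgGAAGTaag
Mapk9 first: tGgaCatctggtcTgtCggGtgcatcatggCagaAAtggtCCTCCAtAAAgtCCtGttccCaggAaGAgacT
Mapk9 second: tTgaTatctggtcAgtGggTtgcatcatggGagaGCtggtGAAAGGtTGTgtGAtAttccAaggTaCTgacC

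The exons of Pkm, pyruvate kinase of glycolysis (chr9:59675029-59675195 and chr9:59675568-59675734, plus strand), are 167 bases each, differ at 64 positions and are 61.7% identical. The first makes the M1 enzyme of differentiated tissue and the second the M2 enzyme of proliferating cells. The first held 90.8%, 88.3% and 88.6% of the abundance of 710 to 737, and 87.0% to 90.2% in the other 11 libraries. It was the pair with the narrowest spread among those named here.

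The Gria1 pair (chr11:57309769-57309883 and chr11:57310608-57310722, plus strand), 115 bases each with 36 differences (68.7% identical), is the flop and flip choice next to the last membrane segment, which sets how fast the AMPA receptor desensitizes. The first, flop, held 100%, 75.2% and 80.9%, and 0% to 93.3% in the other 11 libraries. The matching pair of Gria2 (chr3:80691320-80691434 before chr3:80690404-80690518, minus strand) had its first exon at 80.1%, 56.6% and 90.8%, but at a level of only 14.5 in replicate 2 against 181 and 197. The pair of Gria4 had its first exon at 88.6%, 66.8% and 77.4%. Mapk9, which encodes the stress kinase JNK2, chose its first exon (chr11:49873836-49873907) over the second (chr11:49874264-49874335) in 39.6%, 32.6% and 32.7% of abundance, and these exons differ at 25 of 72 positions. Dnm1, dynamin 1 of synaptic vesicle endocytosis, had the first of its pair of 139 bases at 20.9%, 23.7% and 16.6%.

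Neurexins are presynaptic adhesion proteins with a cassette of 90 bases at splice site 4, whose presence changes which postsynaptic partners bind. The exon of Nrxn2 (chr19:6513716-6513805, plus strand) was included at 54%, 48.0% and 58.3%, and that of Nrxn3 (chr12:90199147-90199236, plus strand) at 81.0%, 47.9% and 54.1%. Both forms were thus present in every mouse for both genes. The high value of Nrxn3 was that of replicate 1, where the level over both forms was 19.3 against 41.1 and 40.6.

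**Figure D5:**
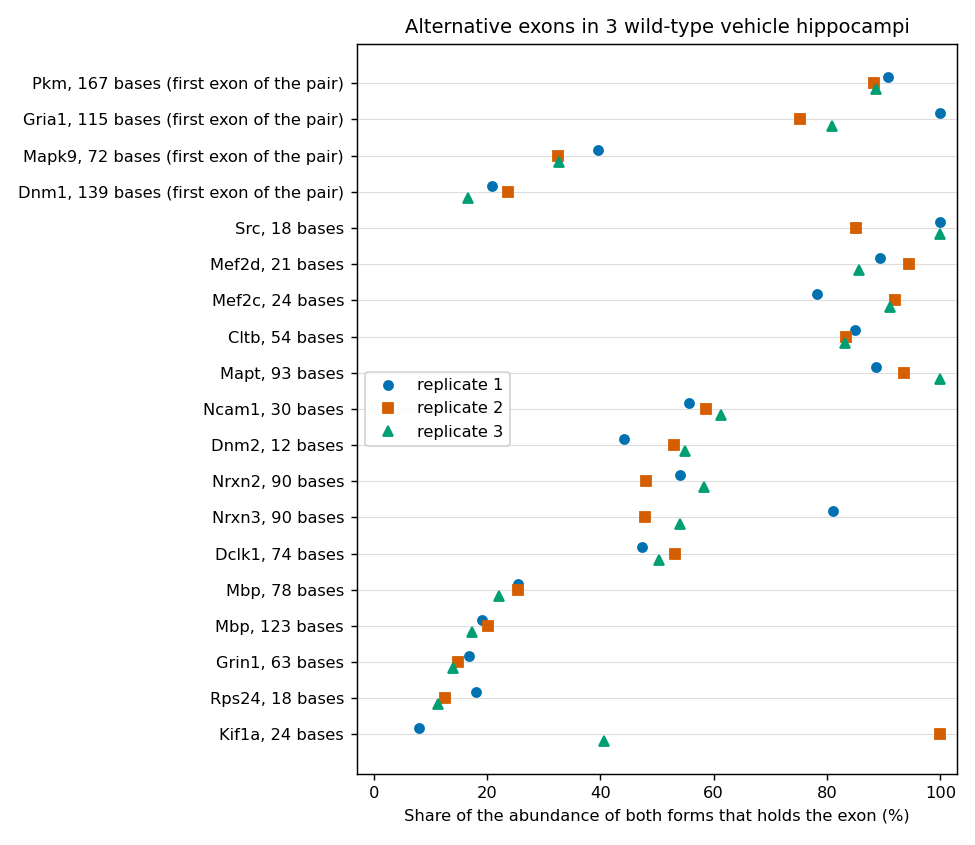
Share of the abundance of both forms that holds the named exon (for pairs, the first exon), with 1 symbol per wild-type vehicle library. Pkm lies at 88.3% to 90.8% and Rps24 at 11.4% to 18%, while the 24-base exon of Kif1a is spread over 7.96%, 100% and 40.6%.

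Several other known exons were close between the mice. The neuronal exon of clathrin light chain B (Cltb, 54 bases) was included at 84.9%, 83.4% and 83.1%, and the 74-base exon of the neuronal kinase gene Dclk1 at 47.4%, 53.2% and 50.4%. In Mapt, which encodes tau, the 93-base exon that adds a microtubule-binding repeat was included at 88.7%, 93.6% and 100%, though at 0% to 100% in the other libraries. The 63-base exon of Grin1, which adds the N1 cassette outside the membrane, was included at 16.8%, 14.8% and 14%. The 30-base exon of the adhesion gene Ncam1 was included at 55.6%, 58.7% and 61.3%, though at 0% to 66.3% in the other libraries. In Mbp the exons of 78 and 123 bases were included at 25.5%, 25.5% and 22.1%, and at 19.2%, 20.2% and 17.3%, although the gene's own level was 1825 in replicate 1 and 2825 in replicate 2.

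Many exons of the chosen genes were not stable between the mice. Of the 98 cassettes 56 stayed within 15 percentage points and 8 ranged over more than 50. The 24-base exon of the axonal motor gene Kif1a was at 7.96%, 100% and 40.6%, and a 12-base exon of Dnm1 at 0%, 100% and 0%. In Ptprd, a receptor phosphatase of synapse formation, the 9-base exon was at 0%, 33.6% and 100% at levels of 12.8 to 26.3. The others of the 8 were a 27-base exon of Kif1a, the 115-base exons of Gria2 and exons of Cacna1d and Cdc42. In the other 11 libraries the 24-base Kif1a exon ranged from 0% to 100% as well.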

How the data were processed

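The authors assembled transcripts per library with CLASS 2.1.7, per the file headers. FastQC, TopHat2 2.1.0 and the genome build mm10 are named in the submitters' processing notes, and the library kits, which do not mark strand, in the labels' protocols. Each deposited transcript carries an abundance, held here as a score. The scale is not named: abundance times length fell on whole multiples of 1 step for 96.9% to 98.3% of low single-exon transcripts (within 5% of a step), as FPKM values would. The deposited comparison tables hold 1 FPKM value per locus pooled over a group, per the file headers, with no spread between mice.

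Transcripts were matched to GENCODE M21 (mm10, 55450 genes) by a shared intron, or, for a single exon, by at least 50% overlap with exons; single-exon transcripts carry no strand in the deposited files, so genes that overlap on opposite strands cannot be told apart there. Transcripts without a gene held 5.20% to 6.28% of abundance. A gene's transcripts were summed, and libraries were divided by the median of ratios over genes with a value in all 3 (0.964, 1.00 and 1.04). Genes with near-identical copies stay uncertain. The summed values came to 131% to 140% of the total implied by the step, so totals serve only as relative depth. Other libraries were scaled to the same genes. Alternative exons had at least 5 units of abundance over both forms in each library. The scaling and exon steps were tested on simulated data. Python 3.11.15, numpy 2.4.6, scipy 1.17.1 and matplotlib 3.10.9 were used.

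Named are the 20 genes of highest mean, in each cell class the 2 to 4 highest members and defining members at 0, the 10 genes with most transcripts, the 15 of largest ratio, sex-linked genes, Kmt2d, Kdm1a and exons of the chosen genes. Some genes that this rule names are not reported here. Other genes were named after their values were seen. The members and lists were chosen with earlier results of these data known. Settings varied were the low-value filter, pseudocount, scaling, the transcript used per gene, exon minimum, gene matching and each replicate left out.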

Additional observations from a re-analysis of the deposited data

How the results depend on the processing

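No paired analysis was possible because the values come from no test and the group is compared with no other. The results are levels, counts, shares and correlations, so they have no direction that a setting could reverse. Of the main values under other settings, 33 stayed the same and 23 moved. A move was a shift of at least the SD between libraries or pairs or, for counts, beyond a set factor. The levels of 26 of the 28 marker lists moved with the mean over members. Genes found in every library numbered 12975 to 14459 over all settings tried. The marker lists with a median of at least 10 numbered 12 under both other scalings, with the highest transcript per gene and without any 1 replicate, but 21 lists reached 10 with the mean over members in place of the median. The share of the 100 most abundant genes was 19.5% with the highest transcript per gene and 15.2% for abundance times length. The median correlation between libraries was 0.909 with a pseudocount of 1/10, 0.973 with one of 10 times and 0.977 over genes with a value in all 3, and 0.954 to 0.960 without 1 replicate. Transcripts per gene averaged 1.63 for transcripts of at least 1, 2.07 over genes with a value in all 3 and 1.97 for transcripts of 2 or more exons. Shared chains made up 60.5% of those with an abundance of at least 1, 54.2% to 55% without 1 replicate (2 libraries then have to share them), and single introns 89.8%. Genes with a ratio of 2 numbered 1195 with a mean of at least 1, 239 to 291 without 1 replicate and, chosen after seeing the data, 364 with multi-exon transcripts only. Median microexon inclusion, 77.0%, was 50% when transcripts were counted unweighted and 74% to 77.8% without 1 replicate. Rank correlation with the authors' pooled values was 0.90 over all loci that name the gene and, chosen after seeing the data, 0.962 over genes named in 1 locus only. Depth was least in replicate 3, and its part in the levels of low genes and in the assembly of single-exon transcripts was not tested.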
